A study of Saccharomyces cerevisiae with 17 samples.

Results

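The spaceflight cultures of 2 engineered flocculating yeast strains were compared array by array. The groups were 2 arrays titled FLO1 Microgravity, from a BY4742 strain that overexpressed FLO1, and 3 arrays titled FLO8 Microgravity, from the strain labelled BY4742::FLO8, and these 5 arrays of the 17 in the series were chosen by their titles alone. Every probe set annotated to 1 Saccharomyces cerevisiae gene entered, with the highest mean over the 17 arrays where a gene had several, which gave 5449 genes. BY4742, the background of both strains, is a laboratory haploid of mating type alpha with deletions at HIS3, LEU2, LYS2 and URA3. The labels do not give the promoter or vector behind the FLO1 overexpression, what was inserted in BY4742::FLO8, how many clones were used, or whether replicates were separate cultures. The p-values therefore cover the spread between these samples, which may be technical. The cells of all groups were loaded in saline, received rich medium 5 days after launch and grew for 72 h at 23 °C before filtration and fixation. The other arrays were 3 of wild type in flight and 3 of each strain on the ground, where cultures followed the temperatures logged in orbit at a later date.

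Flocculins are cell wall glycoproteins that let yeast cells stick to each other or to surfaces. Flo1, Flo5, Flo9 and Flo10 bind mannose chains on neighbouring cells and gather cells into flocs, while Flo11 acts in adhesion to surfaces, in biofilms and in filamentous growth. Flo8 is a transcription factor downstream of protein kinase A that activates FLO11 and FLO1, and laboratory strains derived from S288C carry a nonsense mutation in its gene. The comparison therefore sets a strain in which 1 flocculin was raised against a strain labelled with a regulator of several, both after growth in orbit.

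The deposited values were log2 probe set levels, so a difference of 1 is a 2-fold difference. Array medians lay between 9.84 and 9.94, and a level of 4.61, which 95% of the Schizosaccharomyces pombe probe set values on these arrays stay below, was taken as background. Of the 5 flight arrays, FLO1 flight array 1 and FLO8 flight array 2 had the most genes over 1 log2 from the median of the 5 (280 above and 212 below, and 580 above and 279 below), followed by FLO8 flight array 3 with 62 and 96. FLO1 flight arrays 1 and 2 differed from each other by over 1 log2 at 663 genes, and FLO8 flight arrays 2 and 3 at 1533. The pair most alike crossed the strains: FLO1 flight array 2 and FLO8 flight array 1 differed by over 1 log2 at 57 genes, with a Pearson correlation across genes of 0.99. The 3 prime minus 5 prime difference of 7 control genes, a measure of RNA degradation, was 1.41 and 1.26 on the FLO1 flight arrays and 1.26, 1.15 and 1.17 on the FLO8 flight arrays, the difference of 0.143 having an exact two-sided permutation p of 0.2, the smallest that 2 against 3 arrays allow. Its part in the results below was not tested except as a covariate.

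**Figure D1:**
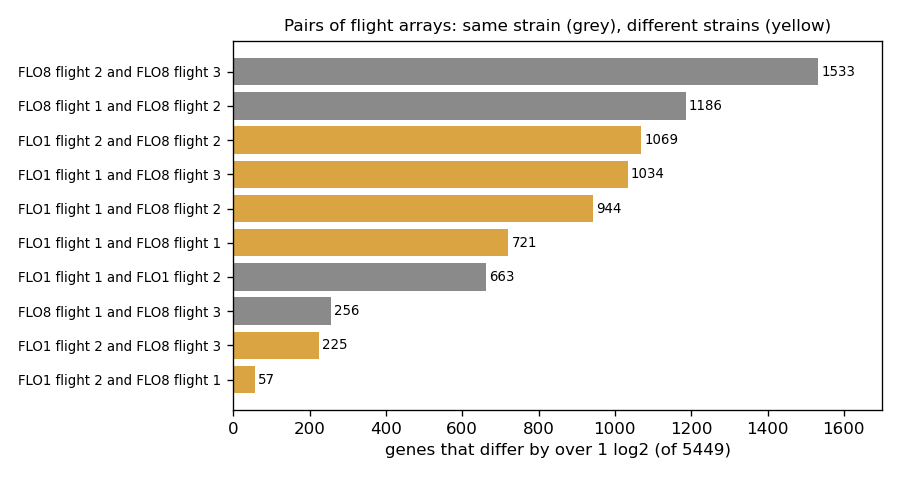
Each bar gives the number of genes, of 5449, whose level differs by over 1 log2 between a pair of flight arrays, in grey for arrays of the same strain and in yellow for arrays of different strains. The lowest bar, at 57 genes, joins a FLO1 and a FLO8 array, and the highest, at 1533, joins FLO8 flight arrays 2 and 3.

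In flight, 3 genes separated the strains by the test across all genes, and all 3 encode flocculins. FLO1 was 7.08-fold and FLO9 3.76-fold higher in the FLO1 strain, and FLO11 was 10.6-fold higher in the strain labelled FLO8. The 3 genes were 0.0551% of those tested by limma, with an adjusted p under 0.05 (0.0367% higher and 0.0184% lower in the FLO1 strain). An unadjusted p under 0.05 was met by 455 genes (8.35%), with 4.90% of all genes higher and 3.45% lower. These 3 were also the genes whose 2 groups of flight arrays lay more than 1 log2 apart at their nearest arrays.

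FLO1 (YAR050W), the flocculin that the FLO1 strain overexpresses, read 12.57 and 12.52 log2 on FLO1 flight arrays 1 and 2, against 9.59, 8.93 and 10.64 on FLO8 flight arrays 1, 2 and 3. Both FLO1 arrays were high and close together, while the FLO8 arrays were spread more widely and all stayed below them. The difference was 2.82 log2 (SE 0.39, 95% interval 1.98 to 3.67, limma adjusted p = 0.00777). All 3 FLO8 flight arrays also lay above the range of the 3 wild-type flight arrays, 7.81 to 8.87, the lowest of them narrowly. Set against the same wild-type arrays, FLO1 differed by 4.08 (SE 0.39, adjusted p = 2.67e-04) in the FLO1 strain and by 1.26 (SE 0.35, adjusted p = 0.205) in the strain labelled FLO8.

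FLO9 (YAL063C), a flocculin close to FLO1 in sequence, read 13.14 and 12.96 log2 on FLO1 flight arrays 1 and 2 and 11.36, 10.59 and 11.47 on FLO8 flight arrays 1, 2 and 3. The groups did not overlap, and the FLO8 arrays reached into the wild-type range of 10.39 to 11.04 at 1 array, FLO8 flight array 2. The difference was 1.91 log2 (SE 0.25, 95% interval 1.38 to 2.44, adjusted p = 0.00645). The probe set of FLO9 is marked by the array's maker as shared by related transcripts, so FLO9 and FLO1 RNA cannot be told apart there.

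FLO11 (YIR019C), the flocculin of adhesion and filamentous growth, read 8.56 and 9.48 log2 on FLO1 flight arrays 1 and 2, against 12.09, 12.16 and 13.02 on FLO8 flight arrays 1, 2 and 3. The FLO8 arrays were the high ones, and the FLO1 arrays lay in or just above the wild-type range of 8.11 to 9.43. The difference was −3.40 log2 (SE 0.45, 95% interval −4.37 to −2.44, adjusted p = 0.00645). Against the shared wild-type arrays FLO11 differed by 0.13 (SE 0.45, adjusted p = 0.989) in the FLO1 strain and by 3.54 (SE 0.40, adjusted p = 0.00216) in the strain labelled FLO8.

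The other 4 of the 7 flocculins and adhesins measured did not pass the test. FLO10 (YKR102W), a further flocculin, read 9.69 and 10.12 on the FLO1 flight arrays and 9.98, 9.17 and 9.14 on the FLO8 flight arrays. These groups overlapped, and the interval of the difference, −0.21 to 1.14, held both 0 and a change of over 2-fold. AGA1, the anchor subunit of a-agglutinin, differed by 0.24 (SE 0.44), SAG1, the alpha-agglutinin, by −0.29 (SE 0.50), and FIG2, an adhesin of mating cells, by 0.18 (SE 0.28). FLO5 had no probe set under its name. Over the 7 members 5 were higher and 2 lower in the FLO1 strain, with a median of 0.24 beside 0.01 over all genes. The median was 0.66 without FLO1 flight array 1 and −0.16 without FLO1 flight array 2.

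**Figure D2:**
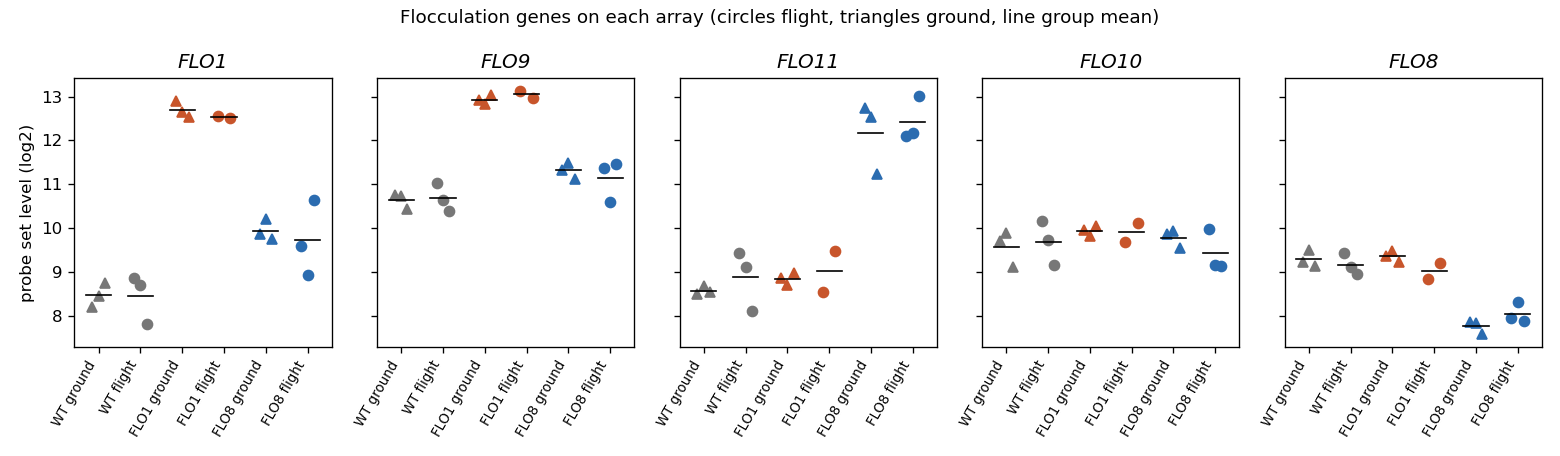
Probe set levels in log2 of FLO1, FLO9, FLO11, FLO10 and FLO8 on each of the 17 arrays, by group, with circles for flight, triangles for ground and a line at each group mean. In flight the FLO1 strain is high for FLO1 (12.52 and 12.57) and FLO9 (12.96 and 13.14), and the strain labelled FLO8 is high for FLO11 (12.09 to 13.02).

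The 3 calls kept their direction under all 17 alternatives, and each was lost in 7 of them. Fitted on the 8 flight arrays alone, where only flight replicates set the spread, FLO11 had an adjusted p of 0.434 and FLO1 and FLO9 of 0.754, and without FLO1 flight array 1 all 3 had 0.251. Leaving out FLO8 flight array 1 cost FLO1 its call (adjusted p = 0.0557), and leaving out FLO1 flight array 2 raised the count of genes called from 3 to 418, with the lone FLO1 flight array assumed to vary like the other groups. The FLO8 flight arrays lay 0.460 log2 (root mean square over genes) from their group mean and the FLO1 flight arrays 0.352, against 0.142 and 0.108 on the ground, so the spread shared by all groups understates that of the flight groups.

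FLO8 (YER109C) itself read lower in the strain that carries its name. Its probe set gave 8.85 and 9.21 log2 on FLO1 flight arrays 1 and 2, against 7.95, 8.31 and 7.88 on FLO8 flight arrays 1, 2 and 3. The groups did not overlap, and the wild-type flight arrays, 8.94 to 9.43, lay with the FLO1 arrays. The difference of 0.98 log2 (SE 0.20, 95% interval 0.56 to 1.40) did not pass in flight (adjusted p = 0.257), and it did on the ground (1.61, SE 0.18, adjusted p = 0.00128). The difference between those differences, −0.63 (SE 0.26), had an adjusted p of 0.9985. A probe set level does not show whether the transcript carries the nonsense mutation.

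Among 32 measured regulators of FLO11, 17 were higher and 15 lower in the FLO1 strain, and the median of 0.01 was that of all genes. SOK2, a repressor of filamentous growth that acts downstream of protein kinase A, read 10.74 and 9.89 on the FLO1 flight arrays and 9.55, 8.99 and 9.56 on the FLO8 flight arrays. The groups did not overlap, and the difference of 0.95 (SE 0.27) had an adjusted p of 0.487. KSS1, the MAP kinase of filamentation, differed by −0.43 (SE 0.23) with overlapping arrays, and MIT1, an activator of FLO genes, by 0.50 (SE 0.26). No regulator passed. Groups did not overlap at 3 of the 32, all higher in the FLO1 strain, against 5.93% of all genes in that direction. These were SOK2, MIT1 and FLO8 itself, which is a member of the list and was described above. Each array reads RNA of a whole culture, so a change in the share of cells that express a gene and a change in RNA per cell cannot be told apart.

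Genes beside the 4 flocculation loci did not pass. Of the 2 nearest measured genes on each side of FLO1, FLO9, FLO11 and FLO8, taken in RefSeq order, the largest difference in size was −0.70 at YIR018C-A beside FLO11 (adjusted p = 0.627), followed by 0.69 at GDH3, a glutamate dehydrogenase gene beside FLO9 (adjusted p = 0.686).

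Few genes besides the flocculins kept the strains clearly apart on every flight array. In all, 565 genes (10.4%) had flight groups that did not overlap, 323 higher and 242 lower in the FLO1 strain, but in 7 (0.128%) was the gap between the nearest arrays over 0.5 log2. With 2 against 3 arrays, lack of overlap alone cannot reach an exact two-sided permutation p below 0.2, so it is weak evidence for any single gene. Besides FLO1, FLO9, FLO11 and FLO8 the 7 genes were TBS1, YDL218W and CLN1, none of which passed the test. TBS1, a putative zinc cluster protein, read 10.90 and 10.17 on the FLO1 flight arrays and 9.43, 9.11 and 8.76 on the FLO8 flight arrays. Its FLO1 arrays lay above every wild-type flight array (9.63 to 10.08) and its FLO8 arrays below them, with a strain difference of 1.44 (SE 0.30, adjusted p = 0.263). YDL218W, an uncharacterised protein, read 10.63 and 10.54 against 9.36, 9.82 and 9.51, a difference of 1.02 (SE 0.34, adjusted p = 0.487).

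CLN1, a G1 cyclin that drives cells into S phase, read 7.79 and 7.94 on the FLO1 flight arrays and 8.57, 8.51 and 8.59 on the FLO8 flight arrays. Replicates lay close together in either strain, and the wild-type flight arrays, 7.79 to 8.30, lay close to the FLO1 arrays and below the FLO8 arrays. The difference of −0.69 (SE 0.21) had an adjusted p of 0.487. Of 35 genes of the G1 to S regulon 14 were higher and 21 lower, with a median of −0.05, or 0.14 without FLO8 flight array 2. CLN3, the cyclin upstream of CLN1, differed by −1.06 (SE 0.35). It read 8.87 and 10.47 on the FLO1 flight arrays and 10.91, 10.65 and 10.64 on the FLO8 flight arrays, so the difference sat mostly on FLO1 flight array 1. YOX1, a repressor of early cell cycle genes, differed by −0.90 (SE 0.30), and CLB5, an S phase cyclin, by 0.70 (SE 0.25) with overlapping arrays.

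Of the remaining non-overlapping genes with the lowest p, none passed. Higher in the FLO1 strain were SDS23 (0.78, SE 0.18), the retrotransposon gene YBL100W-A (1.15, SE 0.27), MCH2, a relative of monocarboxylate permeases (1.38, SE 0.35), LDB19, an adaptor that sends membrane transporters to endocytosis (0.56, SE 0.15), and ATG1, the kinase that starts autophagy (0.67, SE 0.18). Lower were RFC5, a subunit of the replication clamp loader (−0.76, SE 0.19), FCY21, a relative of the purine and cytosine permease (−1.03, SE 0.26), MOG1, a nuclear import factor (−0.83, SE 0.21), GFD2 (−0.76, SE 0.20), RKM3, a methyltransferase of ribosomal proteins (−0.81, SE 0.22), BNA1, an enzyme of NAD synthesis (−1.02, SE 0.28), and YPL245W (−0.78, SE 0.23). Their adjusted p ran from 0.380 for SDS23 to 0.487.

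Markers of mating type were read in both strains, and the alpha genes were lower in the FLO1 strain without passing. All 4 alpha-specific genes had a difference below 0, with a median of −0.79 in flight and 0.21 on the ground. MF(ALPHA)1, which encodes the alpha pheromone, read 10.56 and 11.74 on FLO1 flight arrays 1 and 2, against 12.09, 13.12 and 12.39 on FLO8 flight arrays 1, 2 and 3. The groups did not overlap, and the difference was −1.38 (SE 0.32, adjusted p = 0.388). STE3, the receptor for a-factor, differed by −1.10 (SE 0.32, adjusted p = 0.487) and MF(ALPHA)2 by −0.48 (SE 0.43), both with overlapping arrays. The mean of the 4 genes was 10.37 and 11.27 on the FLO1 arrays and 11.39, 11.28 and 12.23 on the FLO8 arrays, so FLO1 flight array 2 and FLO8 flight array 2 were nearly level. Without FLO1 flight array 1 the median was −0.43, and without FLO8 flight array 3 −0.44.

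The 6 a-specific genes, which alpha cells repress, were above background on all 5 arrays. The alpha mating type is therefore taken from the background BY4742, since the marker levels alone do not give it. Among the a-specific genes AGA2 and BAR1 were the dimmest at 5.50 to 6.98 log2, and STE2, STE6 and MFA1 read 7.39 to 10.27. Of them 5 were higher and 1, MFA2, lower in the FLO1 strain. MFA2, an a-factor gene, read 8.20 and 8.72 on the FLO1 flight arrays and 10.14, 10.14 and 9.20 on the FLO8 flight arrays, a difference of −1.37 (SE 0.49, adjusted p = 0.493), and wild-type flight arrays spanned both strains at 8.27 to 10.47. Of 7 haploid-specific genes 6 were lower, with a median of −0.43 that became −0.18 without FLO1 flight array 1 and −0.14 with the 3 prime minus 5 prime covariate, among them FUS3, the MAP kinase of mating (−0.66, SE 0.24), and HO, the mating type endonuclease (−0.55, SE 0.26). The 29 pheromone response genes split into 9 higher and 20 lower, with a median of −0.0998, or 0.0426 with that covariate. PRM5, a pheromone-regulated membrane protein that cell wall stress also induces, went the other way at 0.77 (SE 0.27). URA3 and LYS2, deleted in BY4742, read 3.25 to 4.04 on all 5 arrays, below background. HIS3 and LEU2, also deleted there, read above it, at 9.82 to 10.69 and 4.71 to 5.21. Wild-type flight arrays read them above background too, at 9.68 to 10.10 and 5.18 to 5.35.

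The largest shift of any list described was in the seripauperins, the PAU genes, which encode small wall mannoproteins made when oxygen is scarce, and it sat mostly on FLO1 flight array 1. All 13 PAU genes with a probe set, of 24, were higher in the FLO1 strain, where 50.9% of all genes were, with a median of 1.60 in flight and −0.01 on the ground. None passed, 12 had an unadjusted p under 0.05 (4.90% of all genes in that direction), and 3 had groups that did not overlap (5.93% of all genes in that direction). The list mean was 14.04 on FLO1 flight array 1 and 11.28 on array 2, against 10.39, 10.31 and 11.53 on FLO8 flight arrays 1, 2 and 3. FLO8 flight array 3 thus lay above FLO1 flight array 2. Without FLO1 flight array 1 the median fell to 0.40, and with the 3 prime minus 5 prime covariate it was 1.07.

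PAU24 read 14.60 and 11.43 on FLO1 flight arrays 1 and 2, against 9.85, 9.54 and 11.003 on FLO8 flight arrays 1, 2 and 3. Both FLO1 arrays were above all FLO8 arrays and above wild type in flight (10.17 to 10.64), by 0.43 at the nearest FLO8 array, and the difference was 2.89 (SE 0.63, adjusted p = 0.304). PAU5 and PAU7 also had both FLO1 arrays above all FLO8 arrays, at 2.48 (SE 0.59) and 2.56 (SE 0.74), with FLO1 flight array 2 inside the wild-type range at PAU7, while PAU2 (3.00, SE 0.76) overlapped at FLO8 flight array 3. PAU genes are near-identical in sequence, so their probe sets can read each other's RNA.

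Oxygen-regulated and sterol genes followed the same array. Of 23 hypoxic and anaerobic genes 18 were higher and 5 lower, with a median of 0.36 that became 0.0793 without FLO1 flight array 1 and 0.22 with the 3 prime minus 5 prime covariate, and 10 had an unadjusted p under 0.05, all higher (4.90% of all genes). HEM13, an oxygen-repressed enzyme of heme synthesis, read 12.73 and 11.42 on the FLO1 flight arrays and 10.82, 11.68 and 10.82 on the FLO8 flight arrays, and UPC2, the activator of sterol and anaerobic genes, 12.15 and 10.64 against 9.47, 8.90 and 11.13. In either case 1 FLO8 array lay above FLO1 flight array 2. The mannoprotein DAN4 (1.04, SE 0.33) and ARE1, a sterol acyltransferase (0.80, SE 0.30), did not pass. Of 27 ergosterol synthesis genes 23 were higher, with a median of 0.18 that became −0.12 without FLO1 flight array 1. ERG5, which desaturates the sterol side chain, read 1.40 higher (SE 0.44, adjusted p = 0.487), while ERG6, a sterol methyltransferase, differed by 0.82 (SE 0.37) and ERG20, which makes farnesyl pyrophosphate upstream of sterols, by −0.55 (SE 0.20).

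Phospholipid, sphingolipid and glycosylation genes leaned the other way, lower in the FLO1 strain, with no member passing. Of 29 fatty acid and phospholipid genes 20 were lower, with a median of −0.20. CHO1, the phosphatidylserine synthase, read 10.26 and 11.39 on FLO1 flight arrays 1 and 2, against 11.74, 11.75 and 12.34 on FLO8 flight arrays 1, 2 and 3, and CPT1, a cholinephosphotransferase, 8.81 and 9.30 against 9.67, 10.18 and 10.09. Neither gene overlapped between groups. CHO1 differed by −1.12 (SE 0.26, adjusted p = 0.388) and CPT1 by −0.93 (SE 0.20, adjusted p = 0.304). PSD1, which turns phosphatidylserine into phosphatidylethanolamine, read 8.39 and 9.60 against 9.90, 9.68 and 10.60 (−1.06, SE 0.32), and ITR1, the inositol transporter, differed by −0.43 (SE 0.13). Of the 29 genes 5 had groups that did not overlap, all lower, where 4.44% of all genes did, and the median stayed at −0.20 without FLO1 flight array 1.

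Among 30 genes of sphingolipids and very long chain fatty acids 22 were lower, with a median of −0.20 that became −0.0789 without FLO8 flight array 2 and −0.0976 with the 3 prime minus 5 prime covariate. LAG1 and LIP1, subunits of ceramide synthase, differed by −0.77 (SE 0.23) and −0.50 (SE 0.16), and TSC13 and ELO2, enzymes of chain elongation, by −0.71 (SE 0.22) and −0.55 (SE 0.19). Of 42 glycosylation genes 34 were lower, with a median of −0.19 that moved to −0.10 without FLO1 flight array 1 or FLO8 flight array 2. ALG7, which starts the assembly of N-linked sugar chains, read 8.23 and 8.61 against 8.82, 9.55 and 9.02 (−0.71, SE 0.20). OST6 and WBP1, subunits of the oligosaccharyltransferase, differed by −0.66 (SE 0.24) and −0.56 (SE 0.22), and PMT3, a protein mannosyltransferase, by 0.72 (SE 0.25). At ALG7, OST6 and WBP1 both FLO1 arrays lay below all FLO8 arrays. Of the 42 genes 7 had groups that did not overlap, all lower, where 4.44% of all genes did.

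Cell wall mannoprotein genes and glucan and chitin genes did not lean clearly to either strain by count or median. Groups did not overlap at 5 lower and 1 higher of the mannoprotein genes (4.44% and 5.93% of all genes). Of 32 mannoprotein genes 14 were higher and 18 lower (median −0.04), and of 32 glucan and chitin genes likewise 14 and 18 (median −0.05, or 0.14 without FLO8 flight array 2). PIR1, a glucan-linked wall protein, read 9.70 and 10.003 on the FLO1 flight arrays and 10.22, 11.74 and 11.20 on the FLO8 flight arrays, a difference of −1.20 (SE 0.38, adjusted p = 0.487). CWP2, a major wall mannoprotein, differed by −0.67 (SE 0.23), GAS1, a glucan remodelling enzyme, by −0.91 (SE 0.36), and FKS3, a relative of glucan synthase, by 0.83 (SE 0.29). Of 29 cell wall integrity genes 21 were higher, with a median of 0.25 that became 0.11 without FLO1 flight array 1 and 0.06 without FLO8 flight array 2. RLM1, the transcription factor of that pathway, read 11.93 and 11.28 against 10.89, 10.55 and 11.12, without overlap (0.75, SE 0.20, adjusted p = 0.487).

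**Figure D3:**
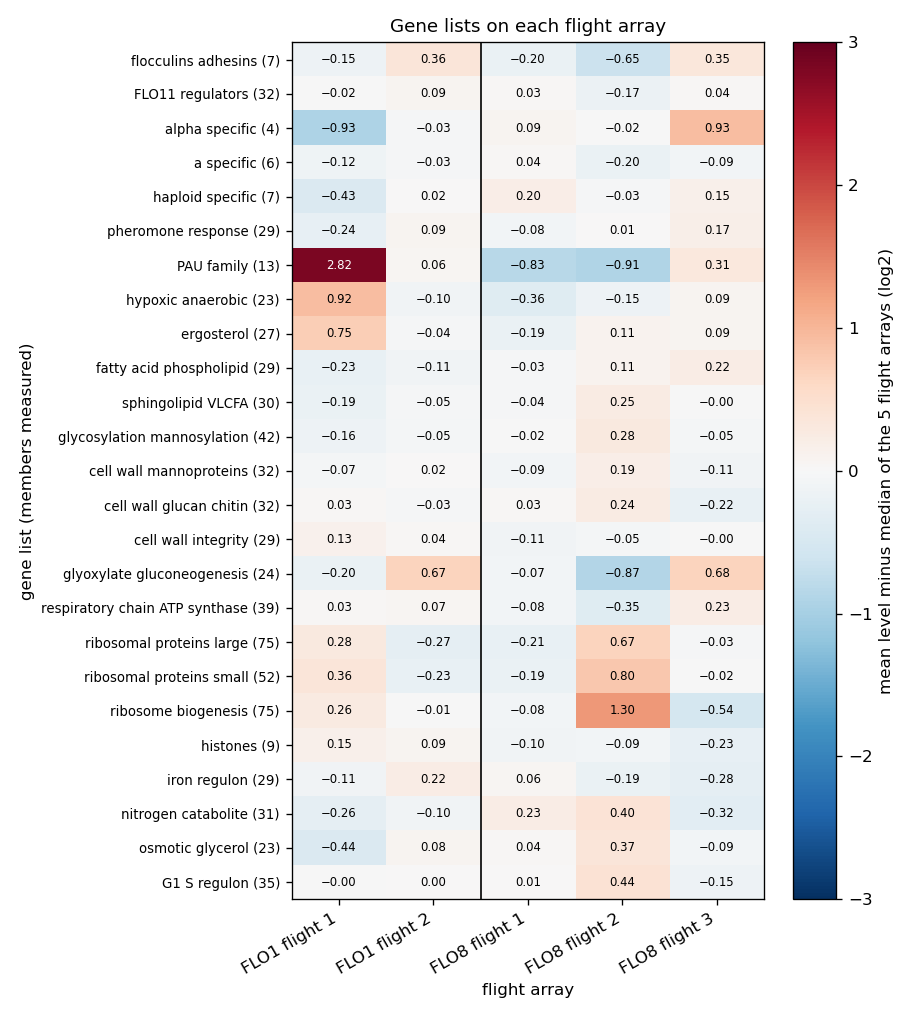
Colour and number give, for each gene list (members measured in brackets) and flight array, the mean over members of the level minus that gene's median over the 5 flight arrays, in log2. The darkest cell is the PAU family on FLO1 flight array 1, and ribosome biogenesis on FLO8 flight array 2 is the next.

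Growth and carbon source genes differed more between arrays of a strain than between strains. Of 75 ribosome biogenesis genes 47 lay over 1 log2 above the median of the 5 flight arrays on FLO8 flight array 2, and 0 did on FLO8 flight arrays 1 and 3. The list mean was 9.004 and 8.73 on FLO1 flight arrays 1 and 2 and 8.67, 10.04 and 8.21 on FLO8 flight arrays 1, 2 and 3. The median strain difference was −0.11, and 0.43 without FLO8 flight array 2. Among ribosomal protein genes 62 of 75 of the large and 44 of 52 of the small subunit were lower in the FLO1 strain, where 49.1% of all genes were, with a median of −0.14 in either subunit. Both medians changed sign without FLO8 flight array 2 (0.14 and 0.16) or FLO1 flight array 2 (0.15 and 0.16). Many ribosomal proteins have a paralogue of nearly the same sequence, so single genes of this group are uncertain.

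Glyoxylate cycle and gluconeogenesis genes, which serve growth on ethanol and acetate, were higher in the FLO1 strain at 20 of 24, with a median of 0.30. The list mean was 11.77 and 12.64 on FLO1 flight arrays 1 and 2, against 11.89, 11.10 and 12.64 on FLO8 flight arrays 1, 2 and 3. FLO1 flight array 2 and FLO8 flight array 3 were thus level, and both were in or next to the wild-type flight range of 12.51 to 12.78. The median was −0.14 without FLO1 flight array 2 and −0.05 without FLO8 flight array 2. ICL1, isocitrate lyase, read 10.07 and 13.09 against 10.69, 10.12 and 13.21, so that each strain had arrays at both levels. ACS1, an acetyl-CoA synthetase, read 12.83 and 12.60 against 12.20, 11.32 and 12.27 without overlap, a difference of 0.79 (SE 0.26, adjusted p = 0.487), and ADY2, an acetate transporter, differed by 1.13 (SE 0.45). Respiratory chain and ATP synthase genes were higher at 30 of 39, with a median of 0.13 that became 0.0251 without FLO8 flight array 2 and 0.0167 with the 3 prime minus 5 prime covariate. Of these genes 8 did not overlap between groups, all higher, where 5.93% of all genes did.

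**Figure D4:**
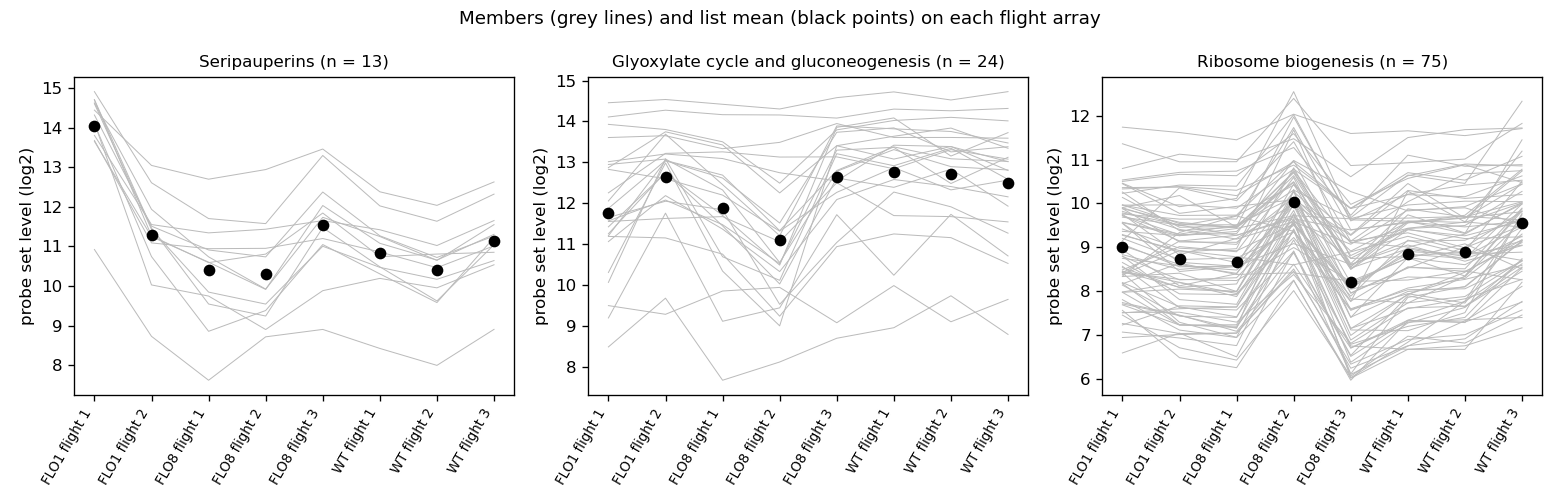
Levels in log2 of each member (grey lines) and the list mean (black points) of the seripauperin, glyoxylate and gluconeogenesis, and ribosome biogenesis lists on the 8 flight arrays. Seripauperins peak on FLO1 flight array 1 (mean 14.04) and ribosome biogenesis genes on FLO8 flight array 2 (mean 10.04), whereas glyoxylate genes are low on FLO1 flight array 1 and FLO8 flight arrays 1 and 2.

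Histone genes were higher in the FLO1 strain at 7 of 9, with a median of 0.44. HHT1, a histone H3 gene, read 13.53 and 13.33 on the FLO1 flight arrays and 13.01, 12.95 and 12.69 on the FLO8 flight arrays. The groups did not overlap, the wild-type flight arrays lay at 13.51 to 13.62, and the difference was 0.54 (SE 0.16, adjusted p = 0.487). HHF1, a histone H4 gene, and HTA2, a histone H2A gene, differed by 0.44 (SE 0.15) and 0.50 (SE 0.18), and HTB2, a histone H2B gene, by −0.48 (SE 0.17). Without any 1 of FLO1 flight array 1, FLO1 flight array 2 or FLO8 flight array 2 the median was 0.34 to 0.51, and no member passed.

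Iron, nitrogen and osmotic genes completed the lists described. Of 29 iron regulon genes 22 were higher, with a median of 0.27, or 0.13 without FLO8 flight array 2 and 0.14 with the 3 prime minus 5 prime covariate, and 7 were higher on both FLO1 flight arrays than on any FLO8 flight array (5.93% of all genes). FRE1, a ferric reductase, differed by 0.74 (SE 0.28), AFT2, an iron regulator, by 0.44 (SE 0.18), and FIT1, a siderophore-binding mannoprotein, by −0.95 (SE 0.34). Of 31 genes under nitrogen catabolite repression 20 were lower, with a median of −0.26, or −0.08 without FLO8 flight array 2. PTR2, the peptide transporter, read 8.39 and 10.56 against 11.37, 11.89 and 10.53, with a narrow overlap, and differed by −1.79 (SE 0.51, adjusted p = 0.487). PUT4, a proline permease, differed by −1.96 (SE 0.67). Of 23 osmotic and glycerol genes 17 were lower, with a median of −0.28 that became −0.07 without FLO1 flight array 1 and −0.02 with the 3 prime minus 5 prime covariate.

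Array by array, the genes over 1 log2 from the median of the 5 flight arrays were fewest on FLO1 flight array 2, with 23 above and 6 below, and on FLO8 flight array 1, with 9 and 31, beside the counts given above for the other 3 arrays. The genes named for each array are among the farthest from the median and were chosen after their values were seen. On FLO1 flight array 1 they were HES1, an oxysterol-binding protein (4.59 above), PDR11 and AUS1, transporters that take up sterol (4.11 and 3.19), and ERG3 and ERG11, sterol synthesis enzymes (2.39 and 2.38), with FET3, an iron oxidase (−2.71), and ROX1, the repressor of hypoxic genes (−2.01), on the low side. On FLO8 flight array 2 they were HXT1, a glucose transporter (3.77), STL1, a glycerol transporter (3.41), PHO84, a phosphate transporter (3.06), and NOP1 and NIP7, ribosome assembly factors (2.71 and 2.72), with CAT8, an activator of gluconeogenesis, at −2.12. The highest wild-type flight array read higher still at HXT1 (13.91 against 13.17 log2) and STL1 (14.05 against 13.46). At PHO84, NOP1 and NIP7 every wild-type flight array lay below FLO8 flight array 2, and at CAT8 above it. On FLO8 flight array 3 SFC1, a carrier of succinate and fumarate in mitochondria, stood at 3.07 and DAL80, a repressor of nitrogen genes, at −3.07. SFC1 read 13.41 log2 there, next to the wild-type flight range of 12.80 to 13.39, and DAL80 5.80, below its range of 8.28 to 9.15.

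The 57 genes that separated the closest pair compare 1 array with 1 array and have no replicate check. The pair was picked because it differed least, so these 57 genes do not isolate the strain difference. FLO1 flight array 2 was higher than FLO8 flight array 1 at 48 of them and lower at 9. FLO1 led at 2.93, with FLO9 at 1.60 and FLO8 at 1.25, and FLO11 was lowest at −2.61. The rest were largely genes that also differed between arrays of 1 strain: 7 of 24 glyoxylate genes, such as ICL1 at 2.39, and 5 of 13 PAU genes, such as PAU2 at 1.92. MFA2 was among the 9 lower genes at −1.42, as was COS12, of a subtelomeric membrane protein family, at −1.32.

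On the ground, where the 2 strains were compared on 6 other arrays, the flocculation genes gave nearly the same differences. FLO1 was 2.75 log2 higher (SE 0.35, adjusted p = 0.00284), FLO9 1.60 higher (SE 0.22, adjusted p = 0.00522) and FLO11 differed by −3.33 (SE 0.40, adjusted p = 0.00227). With FLO8 they made up the 4 ground calls (0.0734%), and 49 genes had an unadjusted p under 0.05 (0.899%). The strain difference in flight minus that on the ground was 0.07 for FLO1 (95% interval −1.06 to 1.20), 0.31 for FLO9 (−0.40 to 1.02) and −0.08 for FLO11 (−1.37 to 1.22). The intervals of FLO1 and FLO11 hold a 2-fold change in either direction, and that of FLO9 holds one upward.

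Across all 5449 genes the flight and ground differences had a Pearson correlation of 0.10, given as a description, since genes are not independent replicates. In flight 103 genes differed between strains by over 1 log2, 72 higher and 31 lower in the FLO1 strain, and on the ground 11 did. No gene passed the limma test that the strain difference changed with flight, and 184 (3.38%) had an unadjusted p under 0.05. Without FLO1 flight array 2 that test called 135 genes. The lowest p in that test belonged to PAU24 (2.89 in flight and −0.08 on the ground), YHR140W (−1.21 and 0.59) and SAP1 (0.55 and −0.32), each at an adjusted p of 0.9985. The ground cultures were run after the flight, so the batch cannot be told apart from the condition. In both conditions without overlap, 58 genes (1.06%) were higher in the FLO1 strain, 28 (0.514%) lower, and 25 (0.459%) switched direction.

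**Figure D5:**
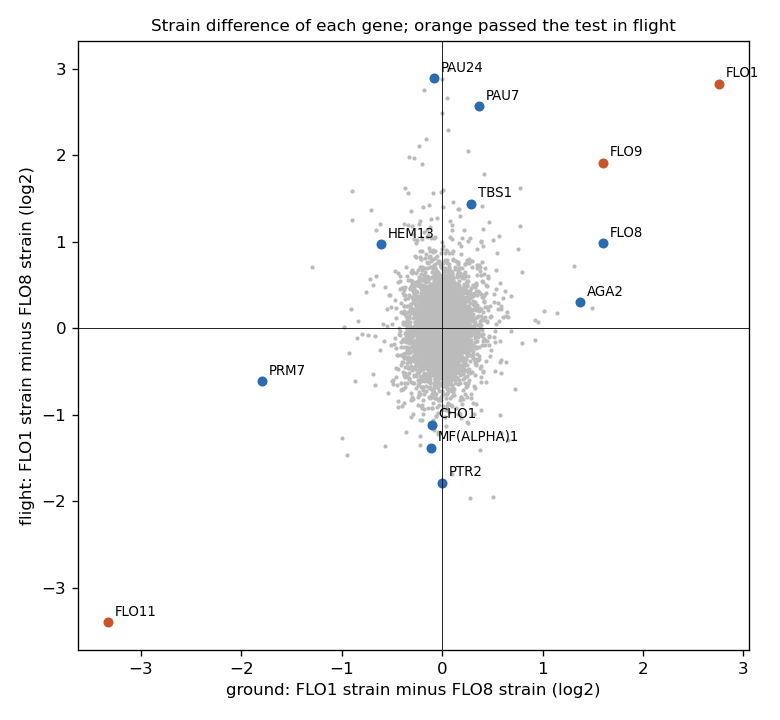
Strain difference of each of 5449 genes in log2 (FLO1 strain minus FLO8 strain) on the ground on the x axis and in flight on the y axis, with orange for genes that passed the test in flight and blue for other labelled genes. FLO1, FLO9 and FLO11 lie far out along both axes, while PAU24 and PAU7 are far out in flight alone, at 2.89 and 2.56.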

How the data were processed

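RNA of 17 cultures was hybridised to Affymetrix Yeast Genome 2.0 arrays. The deposited values are log2 levels per probe set. The submitters' processing notes name RMA, the package affy 1.26.1 and MAS5, and what each did is not given in the sources used here. The values ran from 2.58 to 15.08, no further normalization was applied, and precision is limited by how few arrays there are. Of 10928 probe sets, 7244 carried 1 gene symbol in the platform annotation, 1 several and the others none; 5498 were of S. cerevisiae, 12 symbols were updated through RefSeq R64, and 47 genes had several probe sets. No genome build is named for the array, and coordinates are left out.

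Limma 3.58.1 in R 4.3.3 fitted 1 mean per group to all 17 arrays (11 residual degrees of freedom, eBayes without trend). P-values were two-sided, adjusted by Benjamini-Hochberg over 5449 genes, and called under 0.05. Differences carry a standard error (SE). The procedure was tested on simulated data with 1 spread per gene for all groups. The wider spread of the flight groups was not simulated, so that test does not cover it. Single measures of arrays were compared by exact permutation (scipy 1.17.1). Lists are described by counts and medians, with no set test. The members and lists were chosen with earlier results of these data known.

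Named genes were all flocculins and auxotrophic markers; up to 12 per direction with the lowest p among genes above background whose flight arrays did not overlap; genes called on the ground, or the 3 with the lowest p for the change with flight; up to 4 per list described; and up to 5 per direction with the widest gap between flight groups. Alternatives changed the arrays fitted, the moderation, array weights, scaling, the filter on dim genes, probe set averaging, the replicate number, the 3 prime minus 5 prime covariate and the arrays left out. Replicate numbers were not taken as pairs.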

Additional observations from a re-analysis of the deposited data

Results flagged for a closer look

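At LDB19, MIT1 and DAL3, every FLO1 array lay on one side of the FLO8 arrays in flight and on the other side on the ground. The test of the difference itself passed for none of them, each having a limma adjusted p of 0.9985, and 0.459% of all genes showed such a switch. LDB19, the endocytosis adaptor, was higher in the FLO1 strain by 0.56 log2 in flight and read −0.05 on the ground, a change of 0.61. MIT1, the activator of FLO genes, read 0.50 in flight and −0.69 on the ground, a change of 1.19. DAL3, an enzyme of allantoin use, read −0.999 in flight and 0.16 on the ground, a change of −1.16. CTT1, the cytosolic catalase, switched too. It read 11.34 and 13.04 on the FLO1 flight arrays and 13.52, 14.06 and 13.22 on the FLO8 flight arrays. On the ground CTT1 read 12.53 to 12.97 in the FLO1 strain and 12.38 to 12.47 in the strain labelled FLO8. It did not pass the test of the difference either.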

How the results depend on the processing

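The 3 genes called in flight became 0 with only the groups compared, with only the 8 flight arrays, with array weights and with the 3 prime minus 5 prime covariate, and 1 without 4 arrays named as standing apart in earlier work on these data (WT flight replicate 3, FLO1 flight replicate 1 and FLO8 flight replicates 2 and 3). Without FLO1 flight replicate 1 and FLO8 flight replicate 2 together, an alternative chosen after seeing the data, they became 0. Leaving out single flight arrays gave 0 to 418 genes. With the replicate number as a block 3 genes were called in flight, 4 on the ground and 0 for the difference between them, the same counts as without it. Same-numbered arrays of the 2 strains deviated from their group means with correlations of −0.36 and −0.33 in flight and of 0.20, −0.42 and −0.41 on the ground, and the numbers were not taken as pairs. The 2 FLO1 flight arrays deviate from their mean by opposite amounts. FLO1 flight array 2 with FLO8 flight array 1 therefore gave 0.36, and FLO1 flight array 1 with FLO8 flight array 2 gave 0.33. For that reason the flight correlations cannot show whether the numbers are pairs. On the ground the 4 genes became 22 with only the groups compared, 10 with only the ground arrays, 804 with array weights and 8 without those 4 arrays, and 3 or 4 without single arrays. The 0 genes for the change with flight ranged from 0 to 135 without single arrays. FLO1 stayed between 2.40 and 3.28 log2, FLO9 between 1.55 and 2.08 and FLO11 between −3.87 and −2.61 over the 17 alternatives, with adjusted p up to 0.9995, 0.9995 and 0.679.

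Among genes named without a call, signs turned as follows; the cause was not tested. With array weights FIG2 read −0.136, GPA1 0.0786, RPS9B 0.0912 and DBP9 0.027. Without those 4 arrays SAG1 read 0.22, STE3 0.16, GPA1 0.16, DAN4 −0.0657, RPL4A 0.0765, SRL1 0.11, FKS3 −0.0226, PUT4 0.34 and PMT3 −0.0566. Without the 2 arrays left out after seeing the data YTM1 read 0.13 and SRL1 0.0395. Leaving out single arrays, AGA1 ranged from −0.20 to 0.68, SAG1 from −0.82 to 0.26, FIG2 from −0.16 to 0.52, MF(ALPHA)2 from −1.07 to 0.0098 and ERG6 from −0.0139 to 1.66. The dimmest genes, 61 of 5449 with a mean below background, carry little signal, and leaving them out kept all counts of called genes.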

Other observations

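Lists not described above also held no gene that passed in flight. Of 24 meiosis and sporulation genes 20 were higher in the FLO1 strain, with a median of 0.26 (0.08 without FLO1 flight array 1). Groups did not overlap at 4 higher and 2 lower members (5.93% and 4.44% of all genes). HOP1, SPO20 and ZIP1 were among the higher, HOP1 at 8.78 and 8.43 against 8.13, 8.18 and 8.35. SPS1, a sporulation kinase and 1 of the 4 lower members, read 5.97 and 6.55 on the FLO1 flight arrays and 6.67, 7.62 and 7.41 on the FLO8 flight arrays (−0.97, SE 0.32). Of 22 genes of fatty acid oxidation and peroxisomes 19 were higher (median 0.22, or 0.0834 without FLO8 flight array 2), such as POX1, the acyl-CoA oxidase, at 1.07 (SE 0.37). Of 30 purine and pyrimidine genes 21 were lower (median −0.19, or −0.0779 without FLO1 flight array 1), among them ADE13, adenylosuccinate lyase, at −0.57 (SE 0.19). THI13, of thiamine synthesis, read 11.53 and 10.14 on the FLO1 flight arrays and 10.09, 9.49 and 9.50 on the FLO8 flight arrays, a difference of 1.14 (SE 0.33). SSA3, a stress-induced chaperone, differed by 0.74 (SE 0.25), while CTT1, the cytosolic catalase, read 11.34 and 13.04 against 13.52, 14.06 and 13.22 (−1.40, SE 0.52). Of 64 mitochondrial ribosomal protein genes 38 were higher and of 37 proteasome genes 25, with medians of 0.10 and 0.04 (0.0399 and 0.13 without FLO1 flight array 1).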
